A study of Mus musculus with 12 samples.

Results

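Stmn1, Mapre1 and Cetn3 belong to 3 small gene families whose proteins act on microtubules, and each had a strong USF2 peak in a different combination of the 4 USF2 peak lists. The 9 genes described here are the stathmins Stmn1, Stmn2, Stmn3 and Stmn4, the end-binding (EB) proteins Mapre1, Mapre2 and Mapre3, and the centrins Cetn2 and Cetn3, out of 21887 protein-coding genes on chromosomes 1 to 19, X and Y. A peak was assigned to a gene when its summit, the position of highest read coverage, lay within 1000 bp of either end of the annotated gene (a gene-end peak) or inside the gene. The genes were chosen by their USF2 peaks, that is by the presence of a call and its fold enrichment, so these values are given as a description and no test was made on them. By this rule 11 peaks in 4 merged regions were found, of 3804 regions in all: 2 peaks in starved list 1, 3 in starved list 2, 3 in normal list 1 and 3 in normal list 2.

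The peaks come from chromatin immunoprecipitation followed by sequencing (ChIP-seq) with an antibody labelled Usf2, in mouse embryonic fibroblasts (MEFs) of genotype WT. The 2 starved libraries are from cells under glucose starvation and the 2 normal libraries from cells in the condition labelled Normal. The starved lists hold 825 and 1178 peaks on these chromosomes, the normal lists 1645 and 2124. The labels give no duration of starvation. They also do not state whether the 2 libraries of a condition are separate cultures, and their spread may be technical. The other 8 samples of the 12 (inputs, and H3K27ac libraries of Usf2 WT and Usf2 KO cells) were not analysed here. USF2 binding does not measure the amount of a transcript, and no fibroblast marker could be checked in these lists.

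Some peaks coincide exactly between libraries. The 2 starved lists shared 7 peaks with identical start, end and summit (0.848% of starved 1 and 0.594% of starved 2). The 2 normal lists shared 152 such peaks (9.24% of normal 1 and 7.16% of normal 2). In 136 of them the recovered number of reads at the summit was the same as well. Lists of different condition with the same replicate number shared 0. That number is limited by the calling, since the narrowest peak was 306 bp in the starved lists and 152 bp in the normal lists. A normal peak narrower than 306 bp could not be identical to a starved one. Whether the libraries share reads was not tested. None of the 4 regions at the 9 genes was of this kind, and at Stmn1, Mapre2 and Cetn3 no peak edge was identical between lists of a condition. Among the other genes named below, Cep63 had an identical peak start and Pcm1 and Tacc3 an identical summit in the normal lists, and the Tubgcp6 peak is 1 of the 152.

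Microtubules are polymers of alpha- and beta-tubulin that grow and shrink at their plus ends. Stathmin (Stmn1) binds free tubulin dimers and promotes the shrinking of microtubules, and phosphorylation by cell cycle and signalling kinases turns this activity off. Stmn2, Stmn3 and Stmn4 (SCG10, SCLIP and RB3) are membrane-attached relatives found mainly in neurons. EB1 (Mapre1) rides on growing plus ends and recruits other plus-end proteins there, and EB2 (Mapre2) and EB3 (Mapre3) are its relatives. Centrins are calcium-binding proteins of the centriole, and centrin 2 (Cetn2) is also part of the XPC complex that recognises damaged DNA. USF2 is a basic helix-loop-helix leucine zipper factor that binds the E-box CACGTG.

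The E-box could be looked up in the promoter windows of RefSeq (GRCm38.p6, 250 bases before to 50 after a transcript start), which were at hand for 5 of the 9 genes (6 windows). They are printed here for Mapre1, the EB gene called at its start, for its uncalled relative Mapre3 and for Cetn3, with each CACGTG in capitals. CACGTG reads the same on both strands.
Mapre1, chr2:153741037-153741336, plus strand: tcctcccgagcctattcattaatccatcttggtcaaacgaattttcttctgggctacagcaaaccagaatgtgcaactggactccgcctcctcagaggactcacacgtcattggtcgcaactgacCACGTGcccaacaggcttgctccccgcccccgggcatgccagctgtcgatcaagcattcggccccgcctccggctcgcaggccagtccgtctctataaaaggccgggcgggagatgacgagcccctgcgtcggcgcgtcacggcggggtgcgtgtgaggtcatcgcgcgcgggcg
Mapre3, chr5:30814391-30814690, plus strand: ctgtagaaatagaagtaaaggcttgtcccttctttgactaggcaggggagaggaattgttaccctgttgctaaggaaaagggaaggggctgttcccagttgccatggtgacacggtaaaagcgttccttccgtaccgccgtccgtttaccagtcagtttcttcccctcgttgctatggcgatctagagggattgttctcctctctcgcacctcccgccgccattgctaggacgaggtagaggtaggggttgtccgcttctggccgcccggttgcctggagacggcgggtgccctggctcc
Cetn3, chr13:81782997-81783296, plus strand: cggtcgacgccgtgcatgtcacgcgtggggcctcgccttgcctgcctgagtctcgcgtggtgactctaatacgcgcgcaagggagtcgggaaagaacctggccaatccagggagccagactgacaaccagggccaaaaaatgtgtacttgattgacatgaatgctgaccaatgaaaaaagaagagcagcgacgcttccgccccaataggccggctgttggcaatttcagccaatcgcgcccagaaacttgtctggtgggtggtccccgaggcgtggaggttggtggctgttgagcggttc
The Mapre1 window held 1 CACGTG. The other 5 windows, at Mapre3 (2 starts), Cetn3, Cetn2 and Stmn3, held none. Stmn1, Stmn2, Stmn4 and Mapre2 are named only. Of all 32851 windows, 2349 held CACGTG, or 7.15% (95% exact interval 6.87 to 7.43). The looser motif CANNTG, of which CACGTG is 1 form, was in 72.3% of all windows, 4 times in that of Mapre1 and nowhere in that of Cetn3.

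Stmn1 was called in all 4 lists, and its peak was among the strongest of each. Fold enrichment is the peak caller's ratio of the reads at the summit to the local background, taken with 1 added to each. For Stmn1 it was 18.2 in starved 1, 20.1 in starved 2, 17.6 in normal 1 and 20.1 in normal 2. These values rank 4 of 825, 3 of 1178, 22 of 1645 and 12 of 2124 within their lists. The deposited −log10 q was 34.6 and 43.8 in the starved lists and 30.0 and 36.5 in the normal lists. The fold values of the conditions overlap. Ranks from lists of different length cannot be compared between conditions.

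The 4 Stmn1 peaks lay on the lower-coordinate end of the gene (gene ID 16765; chromosome 4, 134468320 to 134473843). Their summits were 27 and 38 bp inside the gene in the starved lists, 5 bp inside in normal 1 and 47 bp outside in normal 2. All 4 summits fell within 85 bp, 11 bp apart in the starved and 52 bp apart in the normal lists. The merged region runs from 134468078 to 134468661 (584 bp), and no other annotated gene end lay within 1000 bp of a summit. The nearest other gene, the lncRNA 1700021N21Rik, is 18149 bp away. The fold and p-value of a peak fix the whole number of reads that cover its summit, not all reads of the peak. All read numbers given here are of this kind. For Stmn1 they were 33 and 42 reads in the starved libraries and 27 and 31 reads in the normal ones. The local backgrounds were 0.864, 1.14, 0.593 and 0.594 reads. Read numbers are not comparable between conditions, since the minimum peak width was 306 bp in the starved lists and 152 bp in the normal lists, so the lists were called with different widths. By smallest fold enrichment, Stmn1 was number 2 of the 247 regions that all 4 lists called.

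The other stathmins had no peak by the rule in any list. For Stmn2 (chromosome 3, 8509527 to 8561604) the nearest summit of any list was 490411 bp from the gene, for Stmn3 (chromosome 2, 181306459 to 181314500) 192092 bp and for Stmn4 (chromosome 14, 66344210 to 66361680) 411389 bp. An absent peak means that the caller's threshold was not passed, not that binding was measured as absent. The weakest calls of the lists had 3 reads at the summit.

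Among the EB genes, Mapre1 had a gene-end peak in both starved lists and in neither normal list. Its fold enrichment was 14.6 in starved 1 and 12.0 in starved 2, with −log10 q of 31.3 and 26.9, and both normal lists had no peak there. It ranked 23 of 825 and 50 of 1178 by fold enrichment, and 9 and 20 by −log10 q. It had 37 reads at the summit in both starved libraries, over local backgrounds of 1.61 and 2.16 reads, higher than those at Stmn1. By smallest fold enrichment, it was number 3 of the 275 regions found in both starved lists alone. The 2 starved lists give its peak an identical start coordinate (153740949).

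The Mapre1 summits lay 94 and 115 bp upstream of the RefSeq start of the gene (gene ID 13589; chromosome 2, 153741287 to 153773317, plus strand), 21 bp apart. They fell 28.5 and 7.5 bp downstream of the centre of the CACGTG in the printed window (153741162 to 153741167), whose first base is 125 bp upstream of the start. Over all windows that hold both a summit and CACGTG, the median distance between them was 17.5 bp in starved 1 (254 summits) and 23.0 bp in starved 2 (284 summits). No other annotated gene end lay within 1000 bp of the summits. The far end of Mapre1, where Efcab8 begins, is 32124 and 32145 bp from them.

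**Figure D1:**
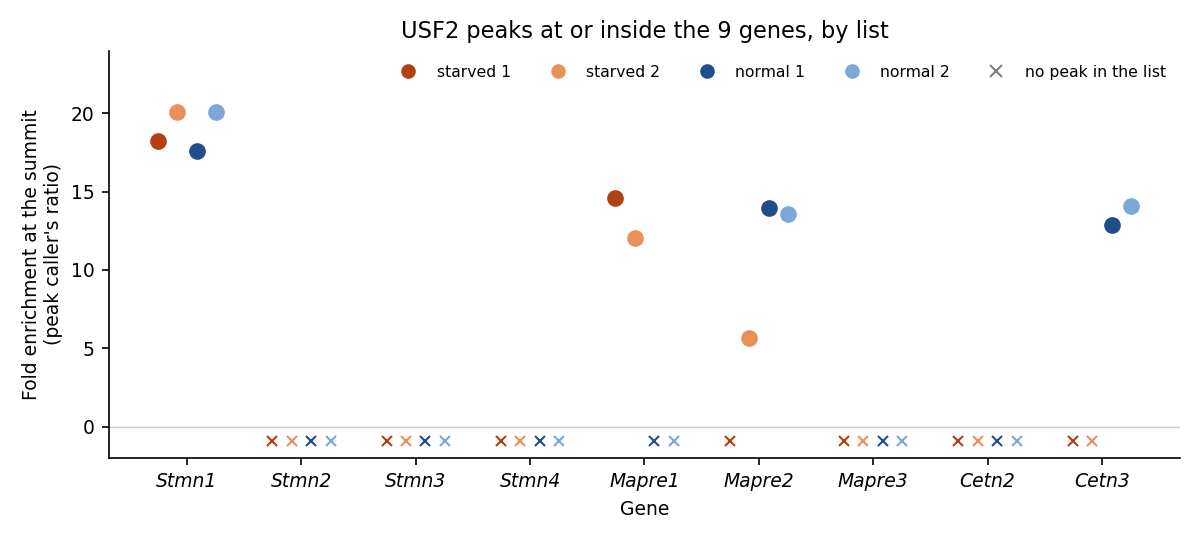
Fold enrichment (the peak caller's ratio) of the USF2 peak assigned to each of the 9 genes in the 4 lists, with 1 point per list and a cross where a list has no peak. Stmn1 has points in all 4 lists, Mapre1 in both starved lists, Cetn3 in both normal lists, Mapre2 in starved 2 and both normal lists, and the other 5 genes have crosses throughout.

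Mapre2 lacked a gene-end peak, but 3 lists had a peak deep inside it. Its fold enrichment was 5.66 in starved 2, 13.9 in normal 1 and 13.6 in normal 2, and starved 1 had no peak. The normal peaks ranked 53 of 1645 and 59 of 2124 within their lists. The starved peak ranked 489 of 1178 within its list, and its −log10 q of 5.04 was the smallest of the 11 peaks. Neither the ranks nor the fold values measure a difference between the conditions. The summit had 14 reads in starved 2, over a background of 1.65 reads. It had 23 reads in each normal library, over backgrounds of 0.722 and 0.767 reads. The 3 summits lay within 51 bp, 51529 to 51580 bp from the lower-coordinate end of this 142 kb gene (gene ID 212307; chromosome 18, 23752333 to 23893861; region 23803757 to 23804116). Long genes have more room for a peak: of the 2939 protein-coding genes of 0.5 to 2 times the length of Mapre2, 7.04% had a peak by the same rule in both normal lists and 22.1% in at least 1 list.

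Mapre3 (gene ID 100732; chromosome 5, 30814606 to 30866106) had no peak by the rule. The nearest was a weak one in starved 2, whose summit lay 6612 bp outside the gene (fold enrichment 4.21, −log10 q 2.06, 4 reads, rank 1094 of 1178). Of the gene-end peaks, the farthest from an end was that of Mapre1 at 115 bp, so no peak of the 9 genes was near the limit of 1000 bp.

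Cetn3 was called in both normal lists and in neither starved list. Its fold enrichment was 12.9 in normal 1 and 14.1 in normal 2, with −log10 q of 18.6 and 21.6, and both starved lists had no peak there. It ranked 73 of 1645 and 53 of 2124, and had 20 and 22 reads at the summit over a background of 0.631 and 0.632 reads. By smallest fold enrichment, it was number 6 of the 760 regions found in both normal lists alone.

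The Cetn3 summits, 12 bp apart, lay inside the gene (gene ID 12626; chromosome 13, 81780636 to 81797155; region 81783665 to 81783894), 3138 and 3150 bp from its lower-coordinate end. By distance to the gene end Cetn3 therefore has no gene-end peak. The RefSeq start listed for Cetn3, however, is at 81783247 on the plus strand, well inside the annotated span, and the summits were 527 and 539 bp downstream of it. Both peaks begin beyond the printed Cetn3 window, which ends at 81783296, so the letters under them are not shown. Cetn2 (gene ID 26370; chromosome X, 72913565 to 72918344) had no peak by the rule, and the nearest summit of any list was 1394616 bp from the gene. Its window held no CACGTG either.

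**Figure D2:**
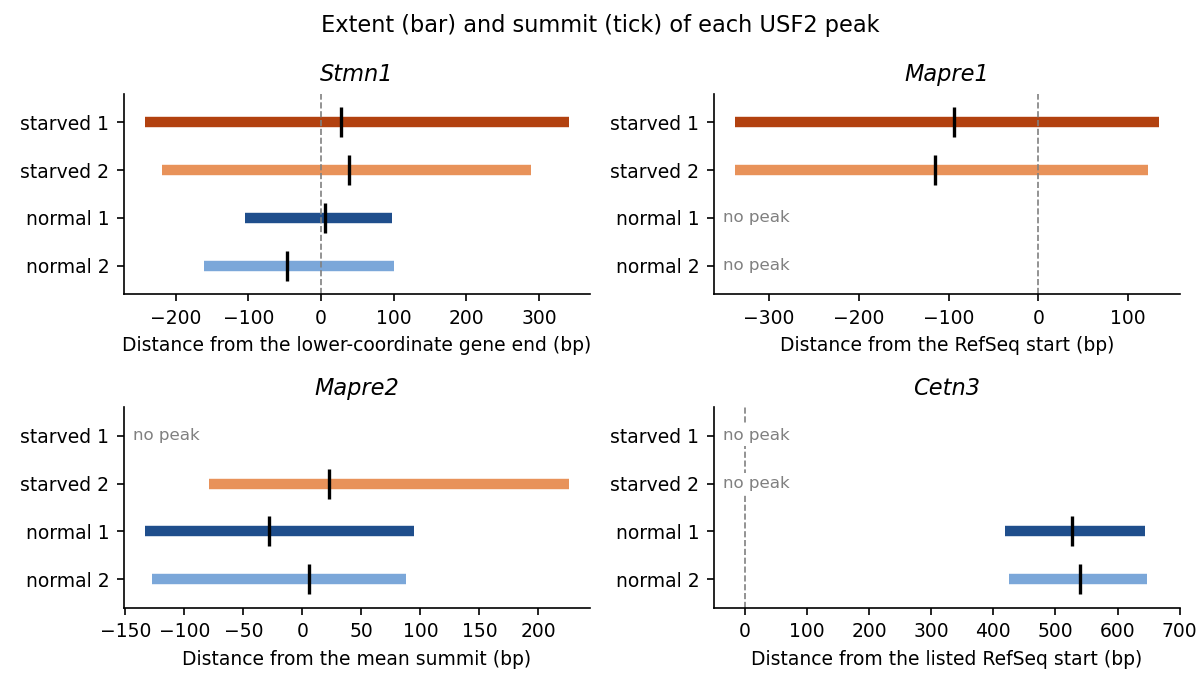
Extent (coloured bar) and summit (black tick) of each USF2 peak at Stmn1, Mapre1, Mapre2 and Cetn3, with 1 row per list, as the distance in bp from the gene end or RefSeq start (dashed line) or, for Mapre2, from the mean summit. The Stmn1 and Mapre1 summits sit within 115 bp of the line, and the Cetn3 summits 527 and 539 bp downstream of it.

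**Figure D3:**
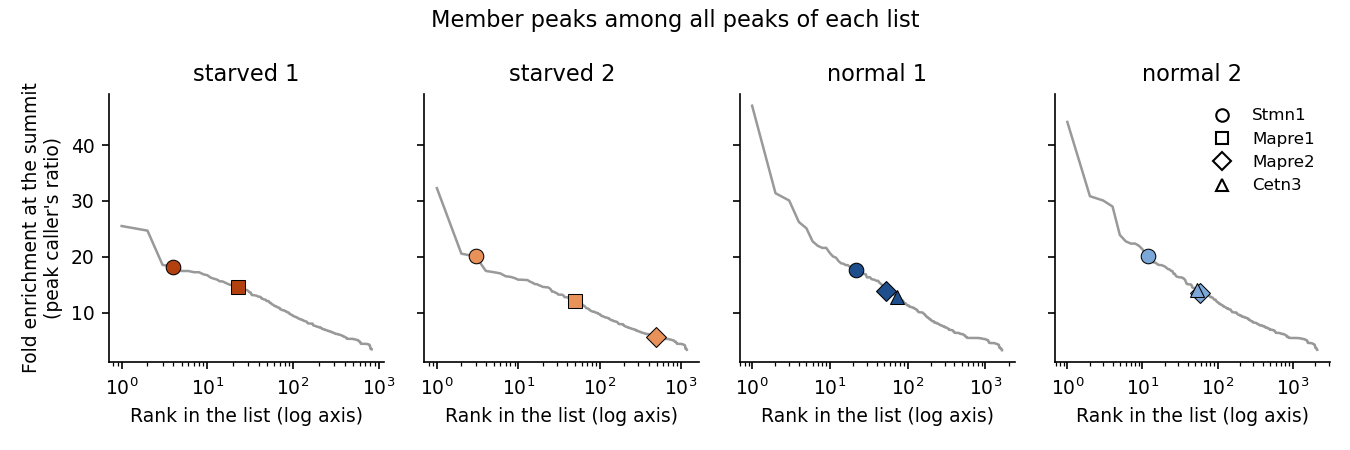
Fold enrichment (the peak caller's ratio) against rank (log axis) for all peaks of each list (grey line), with the peaks of the 4 genes marked. Stmn1 is at rank 4 and 3 in the starved lists and 22 and 12 in the normal lists, and Mapre2 in starved 2 at rank 489 lies far down its curve.

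Taken by gene, gene-end peaks were present at 2 of the 9 genes in both starved lists (Stmn1 and Mapre1), where 1.78% of all protein-coding genes were called the same way. In both normal lists they were present at 1 of 9 (Stmn1), against 2.19% of all, and in all 4 lists at 1 of 9, against 1.13%. At least 1 list had a gene-end peak at 2 of 9 (4.05% of all genes), and 1 of 9, Mapre1, was called in both starved lists and neither normal list (0.557%). With peaks inside genes included, the counts were 2 of 9 in both starved lists (2.48% of all genes), 3 of 9 in both normal lists (4.08%), 1 of 9 in all 4 lists (1.35%) and 4 of 9 in at least 1 list (10.5%). Cetn3, 1 of 9, was found in both normal lists and in neither starved list (2.33%). Because the genes were chosen for these calls, nothing is read from the distance between their shares and those of all genes. In each family the called and uncalled relatives stood side by side: of these 9 genes, 1 of 4 stathmins, 2 of 3 EB genes and 1 of 2 centrins had a peak. The centrins Cetn1 and Cetn4 are not among the 9. They are counted with the other microtubule genes below, and no list had a peak at or inside them.

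The E-box was set beside the calls for all promoter windows, as a description with no test. Of 150 promoter windows with a summit in all 4 lists, 92.0% held CACGTG (95% exact interval 86.4 to 95.8). Of the 82 windows with a summit in both starved lists and neither normal list, the class of Mapre1, 87.8% held it (78.7 to 94.0). Of the 140 windows with a summit in both normal lists and neither starved list, 45.0% did (36.6 to 53.6). Windows without a summit in any list held it in 6.03% of 32260 cases. The Mapre1 window has the hexamer, like most windows of its class. These shares describe windows, several of which can belong to 1 gene, and the intervals cover counting error only.

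**Figure D4:**
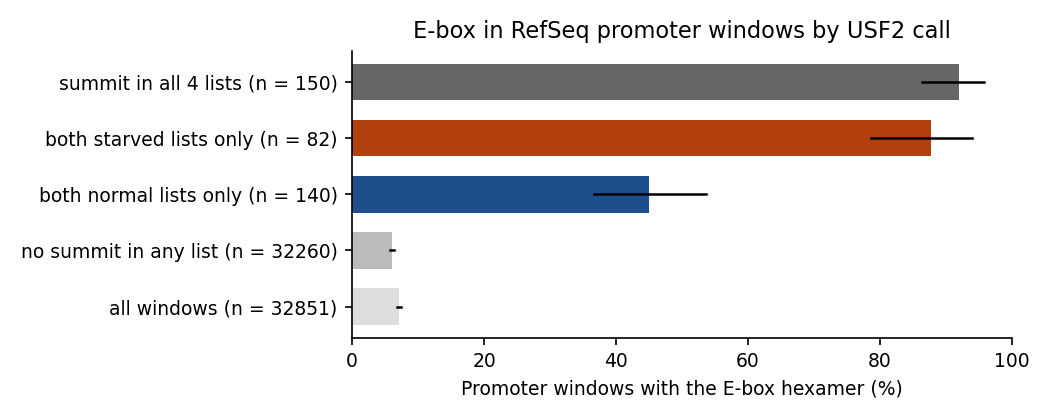
Percent of RefSeq promoter windows that hold the E-box hexamer, by the lists with a USF2 summit inside the window. Bars are shares and lines 95% exact intervals. The share is 92.0% with a summit in all 4 lists, 87.8% with both starved lists only, 45.0% with both normal lists only and 6.03% without a summit.

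Among 189 other genes of microtubule biology, in 7 lists chosen with earlier results of these data known, few had a gene-end peak. In both starved lists 3 were called (1.59%, 95% exact interval 0.329 to 4.57, against 1.78% of all genes). In both normal lists 6 were called (3.17%, 1.17 to 6.78, against 2.19%), and 2 were in all 4 lists (1.06%, against 1.13%). The shares of all genes lie within these intervals. The 37 stabilisers, destabilisers and severing factors and the 19 spindle motors and assembly factors were without a gene-end peak in the 4 lists (exact intervals 0 to 9.49% and 0 to 17.6%, both of which hold the 4.05% of all genes with such a peak in at least 1 list). None of the 32 plus-end proteins, many of which bind EB1, had a gene-end peak in both starved lists (exact interval 0 to 10.9%, against 1.78% of all genes). With peaks inside genes included, 1 of the 32, Apc, was called in both starved lists (3.12%, against 2.48% of all genes).

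Of 39 genes of tubulins, their folding and their modification, only Arl2, a small GTPase that works with the tubulin folding cofactors, had a gene-end peak (2.56%, exact interval 0.0649 to 13.5, against 4.05% of all genes in at least 1 list), and it was called in all 4 lists. Agtpbp1, in normal 1, and Ttll7, in starved 2, had a peak inside the gene. The fold enrichment of Arl2 was 12.5 and 8.23 in the starved lists, against 11.04 and 12.8 in the normal lists. The starved and normal values overlap. The summits lay 112, 111, 60 and 58 bp upstream of the Arl2 start (6141137 on chromosome 19, minus strand), with the starved lists given first. Relative to the centre of the CACGTG in its window, the starved summits lay at -46.5 and -45.5 bp and the normal summits at 5.5 and 7.5 bp, where positive values are downstream. An lncRNA, LOC115489019, also has an end within 1000 bp.

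Of 41 genes of the gamma-tubulin ring, centrosome and centriole, where centrins reside, Pcm1, Poc1b and Cep63 had a gene-end peak (7.32%, exact interval 1.54 to 19.9, against 4.05% of all genes in at least 1 list). Cep120, in normal 2, and Tubgcp6, in both normal lists, had a peak inside the gene. Pcm1, the scaffold of centriolar satellites, was called in all 4 lists with fold enrichments of 6.72 and 6.65 in the starved lists, against 7.91 and 8.27 in the normal lists (chromosome 8, summits 71 to 124 bp from a gene end). Poc1b, a centriole wall protein, was called in both starved lists alone (5.49 and 6.48), like Mapre1. Its summits had 6 and 8 reads, where those of Mapre1 had 37. Cep63, needed for centriole duplication, had 6.04 in starved 1, against 7.79 and 6.28 in the normal lists. The Poc1b and Cep63 summits were equally within 1000 bp of Galnt4 and Anapc13, so these peaks have no single gene.

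A gene-end peak in both normal lists and neither starved list was found at 3 of 189 genes (1.59%, against 0.841% of all genes), among them Mcm3ap and Camk2d. Mcm3ap, whose protein GANP carries centrins in the TREX-2 mRNA export complex, had 5.02 in both normal lists with 7 reads at each summit. Camk2d, a calcium/calmodulin-dependent kinase of the class that phosphorylates stathmin, had 13.8 and 13.2. Its summits had 24 reads each and lay 698 and 706 bp upstream of its listed start. Mcm3ap shares its region with Ybey. The promoter windows of Camk2d, Mcm3ap and Poc1b held no CACGTG. The Mcm3ap summits lay inside the window, but the Camk2d peaks lay wholly outside theirs and the Poc1b summits beyond the end of theirs. The sequence at the Camk2d and Poc1b summits was therefore not searched. A further gene, Ndel1, was called in starved 1 and normal 2 alone.

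The E-boxes of Arl2 and Cep63 are shown beside that of Mapre1, in 60 bases each, because they held CACGTG among the windows looked up, which were those of Arl2, Cep63, Camk2d, Mcm3ap and Poc1b.
Mapre1, chr2:153741135-153741194, plus strand: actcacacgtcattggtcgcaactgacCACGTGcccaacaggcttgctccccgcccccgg
Arl2, chr19:6141173-6141232, minus strand: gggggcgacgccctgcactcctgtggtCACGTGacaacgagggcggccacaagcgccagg
Cep63, chr9:102626266-102626325, minus strand: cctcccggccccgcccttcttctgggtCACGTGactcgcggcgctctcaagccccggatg
The hexamers of Arl2 and Cep63 are preceded by gt and followed by ac, and that of Mapre1 is preceded by ac and followed by cc.

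**Figure D5:**
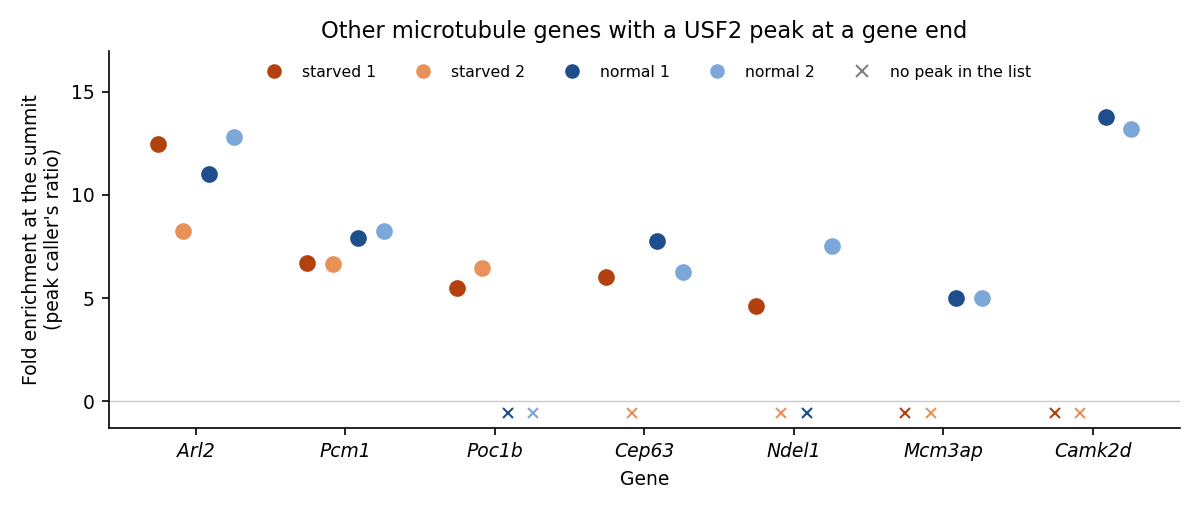
Fold enrichment (the peak caller's ratio) of the gene-end USF2 peak at 7 other microtubule genes with such a peak, with 1 point per list and a cross where a list has no peak. Arl2 and Pcm1 have points in all 4 lists, Poc1b in both starved lists, and Mcm3ap and Camk2d in both normal lists.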

How the data were processed

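USF2 ChIP-seq peaks of 4 MEF libraries were analysed, 1 list per library, not pooled. Per the submitters' processing notes, the tools were MACS2 2.2.7.1, Bowtie2 2.5.1 and deepTools 3.5.1, and the build was GRCm38. Parameters and the use of inputs as control are not given in the sources used here. Each deposited peak has a fold enrichment (a ratio to local background), −log10 p and q values and a score, which equals the whole part of 10 times the deposited −log10 q and was not used. Read depth is unknown. Fold enrichment was used to describe peaks and to rank them within a list. Where fold values of starved and normal lists stand side by side, this is a description without a test. The fold is built from read numbers, which are not comparable between conditions.

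Peaks of the assembled chromosomes were assigned to protein-coding genes of the RefSeq table of GRCm38.p6, which gives neither exons nor UTRs (Python 3.11.15, pandas 2.3.3, SciPy 1.17.1). Peaks that overlap by at least 1 bp were merged into regions. A gene counts as called in both lists even where the peaks differ in position. Reads at a summit were recovered from the fold, taken as (reads + 1)/(background + 1), as the whole number that gives the deposited −log10 p as a Poisson tail. The assignment and the recovery were tested on simulated data. Comparisons between conditions are descriptions: 2 against 2 lists cannot give an exact p below 0.333. Shares have 95% exact (Clopper-Pearson) intervals. The named genes are the 9 members and every list gene with a gene-end peak in both lists of a condition; Ndel1, Agtpbp1, Ttll7, Cep120 and Tubgcp6 were named after their values were seen, and a few items that enter the counts are not reported here by name. Members and lists were chosen with earlier results of these data known.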

Additional observations from a re-analysis of the deposited data

How the results depend on the processing

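Of 138 recomputed counts of called genes, 123 stayed within 1.5 times the reported count. Part of these could not change. Leaving out a normal list does not alter a count in both starved lists, nor the reverse, and using all annotated genes does not alter counts of fixed genes. Among the 9 genes, the gene-end count in both starved lists was 1 and in all 4 lists 0 (reported 2 and 1) when only listed RefSeq starts were used, since Stmn1 has none in that table; in both normal lists it stayed at 1, with Cetn3 in place of Stmn1. In both normal lists it was 2 with a window of 5000 bp (reported 1), because Cetn3 enters. With peaks inside genes, all 4 lists gave 1 to 2 genes when 1 list was left out: without starved replicate 1 Mapre2 counts as well. Among the 189 other microtubule genes, the gene-end count in all 4 lists was 1 with RefSeq starts only (reported 2), and in both normal lists 3 with at least 10 reads at the summit (reported 6). Leaving out 1 list gave 3 to 5 genes in both starved lists, the 5 without starved replicate 2. With peaks inside genes the count was 3 (starved) and 5 (normal) with −log10 q of at least 5, 2 and 5 with at least 10 reads, and 6 in the normal lists cut to equal length, against 5 and 13 reported. It ranged from 5 to 10 (starved; 10 and 9 without replicate 1 and 2) and from 13 to 20 (normal; 20 without replicate 1) when 1 list was left out. With a reciprocal overlap of 50%, or summits within 100 bp, the peaks of each of the 4 regions still chained into 1, over the same number of lists. No paired analysis was possible because the results are counts and values of single lists with no test. The number of reads at the summit limits weak calls.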

Other observations

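With peaks inside genes included, 13 of the 189 other microtubule genes had a call in both normal lists (6.88%, exact 95% limits 3.71 to 11.5, against 4.08% of all genes) and 5 in both starved lists (2.65%, 0.864 to 6.07, against 2.48%). The examples that follow were chosen after their values were seen. Apc, a tumour suppressor that binds EB1 and microtubule plus ends, had a peak in all 4 lists at 1 place inside the gene on chromosome 18, 27311 to 27362 bp from an end. Its fold enrichment was 8.03 and 7.24 in the starved lists, against 11.8 and 11.4 in the normal lists. Tacc3, a spindle protein, had a peak in both normal lists (5.28 in each) with an identical summit and 5 reads in each library. Tubgcp6, of the gamma-tubulin ring, had a peak with the same start, end, summit and 5 reads in both normal lists, 1 of the 152 peaks that coincide exactly between these libraries.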
